A study of Mus musculus with 9 samples.

Results

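Progenitors that carried the Dnmt3a R878H allele were compared with wild-type progenitors after both had been exposed to metformin, and the readout was where in the genome H3K27me3 formed called intervals. The comparison uses 4 of the 9 samples of the series: RH MET 1, RH MET 2, WT MET 1 and WT MET 2, chosen by the treatment and genotype in their labels. The RH MET mice carried 1 Dnmt3afl-R878H allele beside a normal one on C57BL/6, and had been crossed to a Tg(Mx1-cre) line. The WT MET mice were Dnmt3a+/+ on the same strain with the same Mx1-cre transgene. The R878H allele of the mutant line stays silent until Cre acts, and the Mx1 promoter drives Cre in interferon-responsive cells, blood and other tissues included. In both groups the marrow came from female transplanted mice given metformin for 1 month. It was enriched for lineage-negative, c-Kit-positive cells and was never cultured. The 4 vehicle libraries, RH VEH 1 and 2 and WT VEH 1 and 2, carry the same genotypes without the drug. Their calls took no part in the comparison and are used below beside it. Their intervals did help to set the edges of the merged regions, but not those of the gene spans. An input sample completes the series. The ages of the mice, the share of marrow that came from the graft, the share of cells in which Cre had acted and whether the libraries of a group came from separate animals are not stated in the labels. The spread between libraries may therefore be technical.

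H3K27me3 is placed by Polycomb repressive complex 2 and lies in broad domains over developmental genes that a cell lineage keeps silent. DNMT3A adds methyl groups to CpG sites, and in many tissues H3K27me3 domains sit on CpG-rich promoters with little DNA methylation. The R878H change, the mouse counterpart of the most frequent DNMT3A mutation of human leukemia, weakens the enzyme and gives blood stem cells an advantage over normal ones. Metformin is a biguanide that inhibits complex I of the respiratory chain.

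The data are interval lists, each interval with a summit whose height is a whole number given by the authors without a stated unit. A region is a stretch formed by overlapping intervals of all 8 libraries, and a region or gene span is called in a library where an interval overlaps it by at least 1 bp. A library with no call can still carry the mark below the caller's limit. The marrow was measured in bulk, so fewer cells with the mark and less mark per cell cannot be told apart. The read depth is unknown. Among genes used as anchors, some were alike in the 4 libraries and others were not. Intervals covered the whole spans of Hoxd11, a silent patterning gene, and Cdkn2a, a cell cycle inhibitor locus, in all 4, and 95.9% and 93.9% of the span of the eye regulator Pax6 in RH MET against 96.6% and 93.9% in WT MET. Actb and Gapdh, used by every cell, had no interval in any library. Of the progenitor genes, Runx1, Lmo2 and Myb had no interval in any of the 4, while others were covered in all 4. Gata2 was covered over 100% and 100% in RH MET 1 and 2 and 95.2% and 96.7% in WT MET 1 and 2. The values in the same order were 61.2%, 67.7%, 70.3% and 61.2% for Tal1 and 9.70%, 9.70%, 7.03% and 12.4% for Cd34. Kit, by whose product the cells were enriched, was covered over 0.996% and 0% of its span in RH MET 1 and 2. In WT MET 1 and 2 the cover of Kit was 5.89% and 8.58%. The B-cell regulator gene Pax5 was covered over 44.3% and 62.9% in RH MET 1 and 2 against 55.6% and 93.2% in WT MET 1 and 2. The myeloid regulator gene Spi1 had an interval in RH MET 1 alone (24.6%), and Mpo, the myeloperoxidase gene of neutrophils, in WT MET 2 alone (47.2%). A mark at a gene is no measure of its RNA, and intervals cannot show the R878H base change, so the labels were not checked by these data.

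Under metformin the mutant libraries had fewer called base pairs. Intervals covered 122 Mb in RH MET 1 and 131 Mb in RH MET 2, against 148 Mb in WT MET 1 and 186 Mb in WT MET 2. The means were 127 ± 6.44 Mb in RH MET and 167 ± 26.9 Mb in WT MET (SD, n = 2 each), a ratio of 0.760. The groups do not overlap, and the exact permutation test, two-sided, gave p = 0.333, the smallest that 2 libraries against 2 allow. The number of intervals did not separate the groups, with 16879 and 15257 in RH MET and 16572 and 16694 in WT MET (exact p = 1). The extra length of the WT MET libraries lay in wider intervals, whose median width was 5.2 and 6.4 kb in RH MET 1 and 2 and 6.6 and 8.0 kb in WT MET 1 and 2. WT MET 2 stood highest of the 4 in covered length and in width. Without WT MET 2 the difference in covered length was -21.0 Mb, against -40.0 Mb with it.

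The gap was wider on the X chromosome in proportion. Intervals covered 8.95 and 8.26 Mb of it in RH MET 1 and 2, against 12.9 and 19.5 Mb in WT MET 1 and 2, a ratio of the means of 0.531. The corresponding ratio on the autosomes was 0.785. Female cells silence one X chromosome and H3K27me3 spreads along it, which is background here and was not measured. The vehicle libraries did not repeat this order, with 3.21 and 18.96 Mb in RH VEH 1 and 2 against 9.56 and 15.2 Mb in WT VEH 1 and 2.

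**Figure D1:**
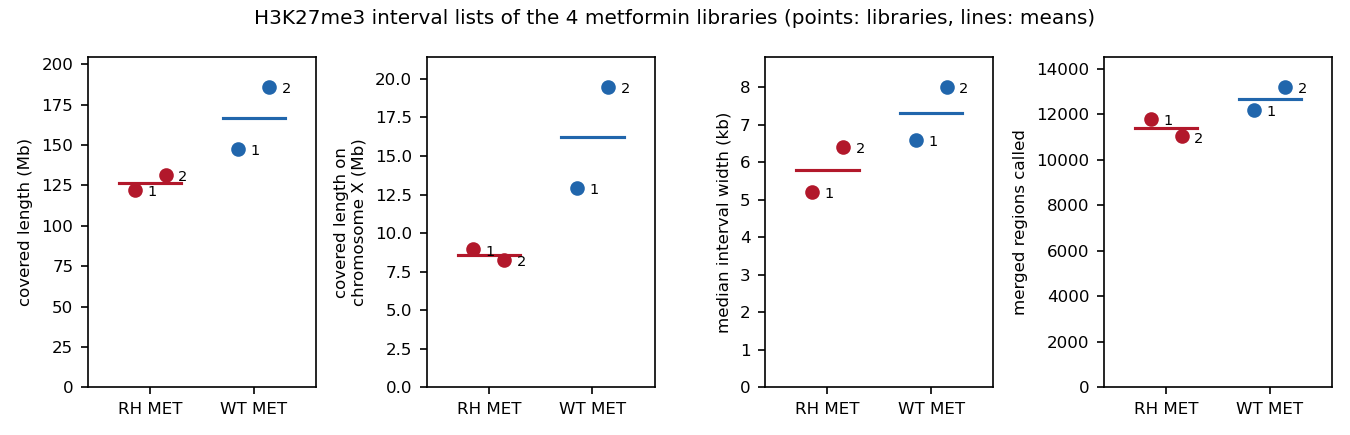
Covered length (Mb), covered length on chromosome X (Mb), median interval width (kb) and number of merged regions called in each metformin library, points being libraries with their replicate number and lines the group means. Both RH MET libraries lie below both WT MET libraries in all 4 panels, and WT MET 2 is the highest of the 4 libraries in each.

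Most regions did not tell the genotypes apart. Of 18556 merged regions, 17126 were called in at least 1 of the 4 libraries and 8365 of these (48.8%) in all 4. Intervals were found in both RH MET libraries and neither WT MET library at 242 regions, 1.41% of the 17126. The reverse, both WT MET libraries and neither RH MET library, held at 666 regions, 3.89%. These 2 sets are called RH MET-only and WT MET-only below. Protein-coding gene spans gave 76 RH MET-only genes (0.921% of the 8248 genes called in at least 1 library) and 182 WT MET-only genes (2.21%), and 6170 genes were called in all 4.

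The same 4 libraries can be split in other ways, which carry no contrast of the study. The number 1 libraries set against the number 2 libraries gave 269 and 363 regions, and RH MET 1 with WT MET 2 set against RH MET 2 with WT MET 1 gave 417 and 182. The totals were 908 regions for genotype and 632 and 599 for the other splits, and 258 genes for genotype against 169 and 148. The genotype split had the largest total of the 3. Single libraries accounted for more regions than any split, with 1051 and 815 called in RH MET 1 or RH MET 2 alone and 1143 and 1697 in WT MET 1 or WT MET 2 alone. The Jaccard index, shared covered base pairs over all covered base pairs, was 0.598 between the RH MET libraries and 0.598 between the WT MET libraries. Across genotypes it ran from 0.538 to 0.592, in each case below the values within groups.

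**Figure D2:**
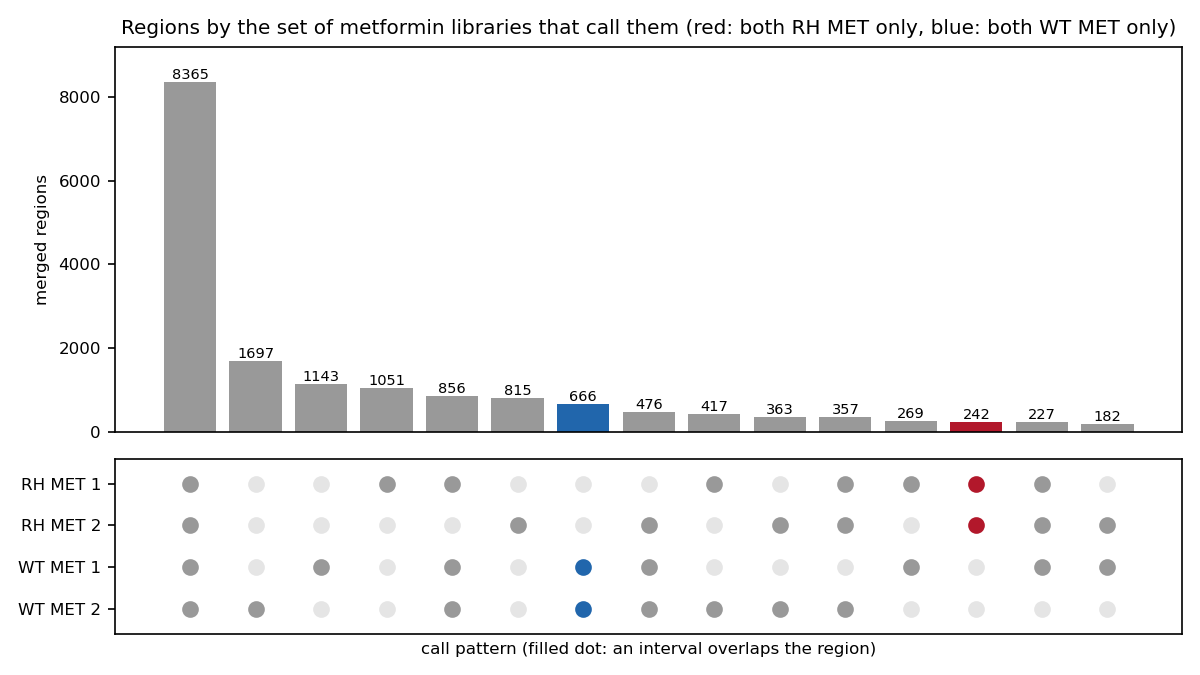
Number of merged regions for each of the 15 sets of metformin libraries that can call a region (bars), with filled dots for the libraries that call it. The RH MET-only bar (red, 242) is the third smallest, and the WT MET-only bar (blue, 666) is the tallest of the 6 patterns in which exactly 2 libraries call a region.

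The size of this imbalance, and under some settings its direction, changed with the processing. When each library was cut to its highest intervals up to 122 Mb, the covered length of RH MET 1, the counts were 852 RH MET-only and 49 WT MET-only regions, the reverse of the order above. At 15257 intervals in every library they were 266 and 524, while intervals with a summit of at least 15 gave 68 and 468. Leaving out a library, so that the other stands for its group, makes the rule looser and moved both counts by more than 1.5 times. They were 1057 and 1522 without RH MET 1, 1293 and 1142 without RH MET 2, 469 and 2363 without WT MET 1, and 599 and 1809 without WT MET 2, so that the order turned without RH MET 2. The gene counts became 209 and 471 without RH MET 1, 263 and 343 without RH MET 2, 173 and 529 without WT MET 1, and 188 and 359 without WT MET 2. Of the regions reported here, 192 of the 242 and 44 of the 666 kept their pattern with equal covered length, and 207 and 426 with an equal number of intervals.

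The separating regions were weak and narrow beside the regions that all 4 libraries called. Median region width was 5.1 kb for RH MET-only and 8.8 kb for WT MET-only regions, against 15.0 kb for those called in all 4. Ranked within each calling library, their summits lay at a median percentile of 37.7 and 28.2, against 72.1 for regions called in all 4. Both summits reached 15, about the median height, at 33 of the 242 and 41 of the 666. Fewer lay in genes. A protein-coding span was overlapped by 54.1% of RH MET-only and 43.7% of WT MET-only regions, and by 76.8% of regions called in all 4. On chromosome X lay 10 of the 242 (4.13%) and 171 of the 666 (25.7%), against 12.9% of all regions called. On the autosomes alone the counts were 232 and 495.

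Stretches with a strong mark in both RH MET libraries and no interval in either WT MET library were few. A lower limit of 25 on both summits, chosen after the data were seen, left 4 stretches in RH MET and 0 in WT MET. This count does not hold every gene span of the kind. 1700020A23Rik (summits 60 and 54), Tnp2 (68 and 59) and Tmem141 (48 and 53) were covered whole in both WT MET libraries, with no interval in RH MET. Odf3b (55 and 51) was covered whole in both RH MET libraries, with no interval in WT MET. Strong intervals over part of the span also lay at WT MET-only genes, such as Tsfm (65 and 77) and Kctd21 (51 and 63). The same held at RH MET-only genes, such as Blvrb (84 and 79) and 2310011J03Rik (63 and 79). The 4 and 0 therefore do not show on which side strong calls were more frequent. Among the 4 stretches were 5.6 kb over Cercam and Urm1 (chr2:29844401-29850000, mm10, summits 33 and 28). Others were 4.6 kb over Rtn4rl1, a relative of the Nogo receptor (chr11:75211601-75216200, 28 and 25), and 0.2 kb in the neighbourhood of Tmprss2 (37 and 31). Under vehicle the Cercam and Urm1 stretch was covered over 0 and 4.8 kb in RH VEH 1 and 2 and over 0 and 4.6 kb in WT VEH 1 and 2, so that it did not follow genotype. The stretch over Rtn4rl1 was covered over 4.2 kb in RH VEH 2 alone, and the one near Tmprss2 in no vehicle library.

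A much longer difference lay in a single library. WT MET 2 had no interval over 243.6 kb of the Hoxb cluster and its flank (chr11:96082401-96326000), where RH MET 1 and 2 covered 220 and 228.8 kb and WT MET 1 covered 219.6 kb, with highest summits of 89, 87 and 87. Hoxb4 to Hoxb9 and Hoxb13, patterning genes of the body axis, and Ttll6, a tubulin-modifying enzyme gene beside them, had no interval in WT MET 2. Its neighbours Hoxb1 and Hoxb2 were covered whole in all 4 libraries, and Hoxb3, at the edge, was covered over 57.1% and 73.7% in RH MET 1 and 2 against 72.6% and 39.5% in WT MET 1 and 2. The 4 vehicle libraries covered 201 to 239.4 kb of the stretch. Hoxa5 was also without an interval in WT MET 2, and was covered over 100% in both RH MET libraries and 63.1% in WT MET 1. WT MET 1 had intervals at all of these, so no Hox gene is among the separating genes. In RH MET 1, RH MET 2 and WT MET 1, 39 of 39 Hox genes were called, against 31 in WT MET 2.

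Strong regions missing from 1 library and from no other metformin library were few in all. With summits of 25 or more in the other 3 libraries, 8 were missing from WT MET 2, 7 from RH MET 2, 1 from RH MET 1 and 1 from WT MET 1. WT MET 2 lacked, beside Hoxb, regions over the receptor tyrosine kinase gene Ret (summits 70 and 64 in RH MET and 79 in WT MET 1) and over Scrt1, a neuronal repressor gene, with Tmem249 (124 and 111 in RH MET and 120 in WT MET 1). RH MET 2 lacked a 25 kb region over Gdnf, which encodes a neurotrophic factor and ligand of the Ret receptor complex (63 in RH MET 1, 67 and 70 in WT MET 1 and 2), and shorter ones over Notch4 and over Lyl1 and Nfix. Absence of a strong region in a single library therefore occurred on both sides of the comparison.

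**Figure D3:**
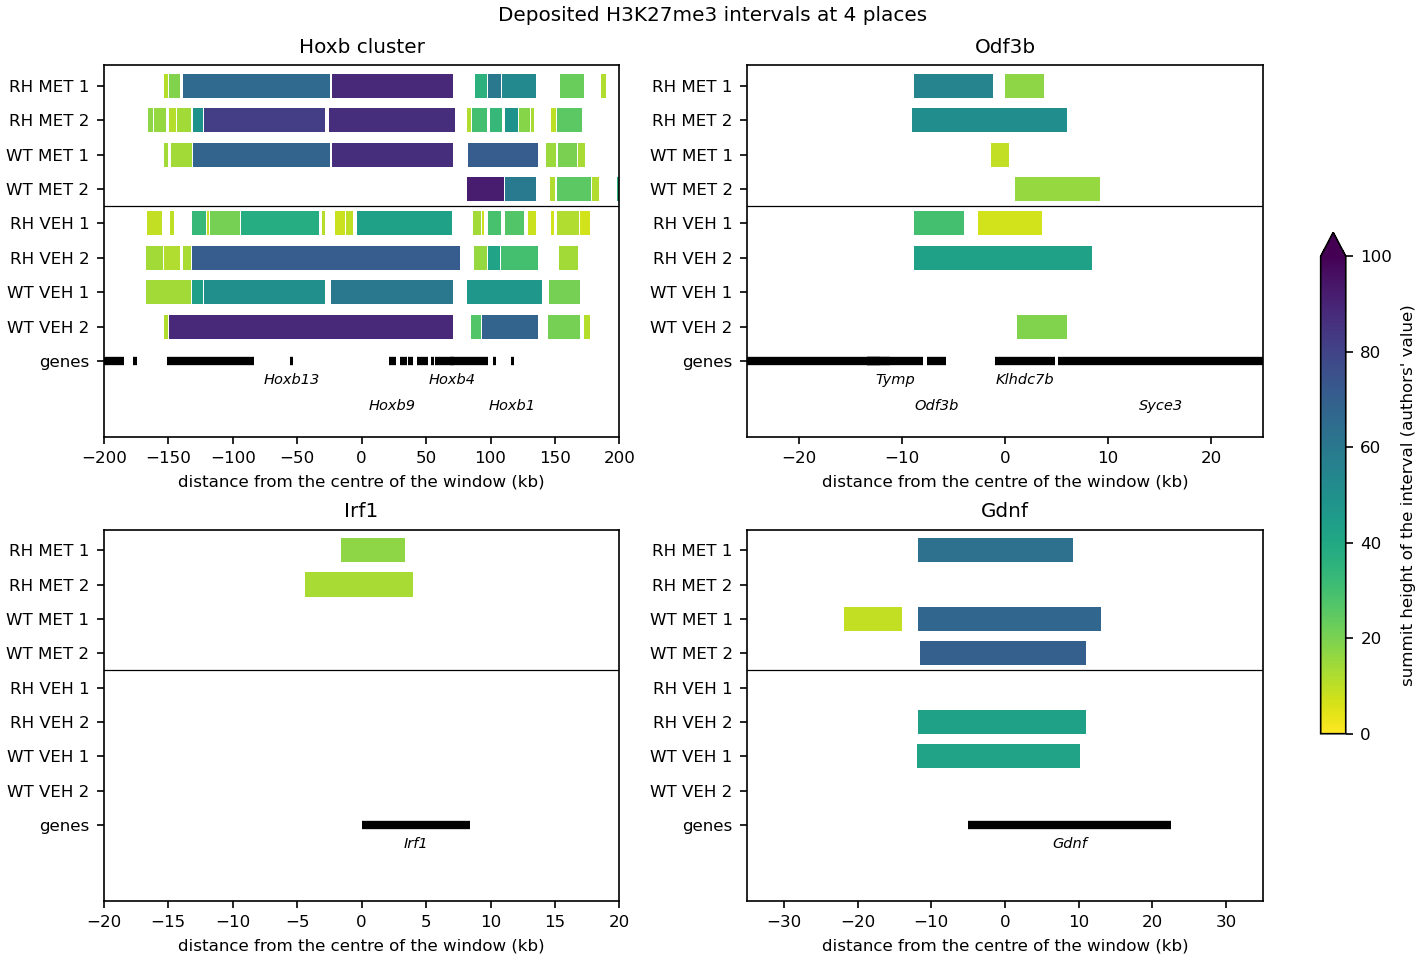
Intervals of the 8 libraries at 4 places, plotted as distance from the centre of each window (kb), with metformin libraries above the line, vehicle libraries below it, colour for summit height (authors' value) and black bars for protein-coding genes. The Hoxb stretch is missing in WT MET 2 alone, Odf3b is covered in the 4 RH libraries, Irf1 has intervals in both RH MET libraries alone, and the Gdnf region is missing in RH MET 2, RH VEH 1 and WT VEH 2.

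The promoters of 4 genes that separate the groups are printed because they show what kind of sequence the calls fell on: Irf1 and Odf3b for RH MET, Dntt and Suox for WT MET. Each runs from 250 bases before to 50 after the start of the gene, 5′ to 3′ on the strand of the gene, from RefSeq (GRCm38.p6), with every CpG in capitals.
Irf1: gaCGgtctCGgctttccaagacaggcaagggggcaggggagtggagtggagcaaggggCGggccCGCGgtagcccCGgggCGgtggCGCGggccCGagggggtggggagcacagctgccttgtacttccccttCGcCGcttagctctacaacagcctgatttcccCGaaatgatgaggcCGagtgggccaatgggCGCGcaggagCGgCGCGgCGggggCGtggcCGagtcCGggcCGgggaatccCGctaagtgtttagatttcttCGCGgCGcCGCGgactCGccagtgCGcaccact
Odf3b: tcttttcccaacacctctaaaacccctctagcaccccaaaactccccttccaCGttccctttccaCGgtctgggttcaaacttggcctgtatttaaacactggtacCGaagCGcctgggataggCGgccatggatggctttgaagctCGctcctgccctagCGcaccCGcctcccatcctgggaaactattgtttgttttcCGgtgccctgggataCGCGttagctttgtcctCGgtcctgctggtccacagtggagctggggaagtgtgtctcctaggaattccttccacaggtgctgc
Dntt: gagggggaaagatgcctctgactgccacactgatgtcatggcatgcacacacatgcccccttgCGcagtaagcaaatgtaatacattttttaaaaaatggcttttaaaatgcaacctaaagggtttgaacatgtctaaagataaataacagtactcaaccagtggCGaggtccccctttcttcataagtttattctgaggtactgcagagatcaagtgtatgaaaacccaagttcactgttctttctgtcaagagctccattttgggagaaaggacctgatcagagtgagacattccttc
Suox: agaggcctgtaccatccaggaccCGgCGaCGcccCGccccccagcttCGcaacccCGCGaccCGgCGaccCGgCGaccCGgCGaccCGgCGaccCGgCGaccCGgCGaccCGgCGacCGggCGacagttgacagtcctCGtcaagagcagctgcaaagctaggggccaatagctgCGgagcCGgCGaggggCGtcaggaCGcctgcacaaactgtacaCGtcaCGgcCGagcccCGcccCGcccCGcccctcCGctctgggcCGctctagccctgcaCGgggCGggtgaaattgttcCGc

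The letters CG, read on one strand and equal on both, occur 32 times in the Irf1 promoter (chr11:53769764-53770063), and 12.1% of the 17274 matched promoters hold as many. They occur 12 times at Odf3b (chr15:89379205-89379504, 54.0% of promoters), 2 times at Dntt (chr19:41029025-41029324, 87.9%) and 40 times at Suox (chr10:128673869-128674168, 4.91%). The 2 RH MET promoters shown thus held a high CpG number and one near the median of all promoters, 14. The 2 WT MET promoters shown held a high and a low one. Over all promoters, 44 were RH MET-only (0.831% of the 5295 called in at least 1 library) and 142 WT MET-only (2.68%). Their median CpG number was 12.5 and 10, against 19 in promoters called in all 4 libraries and 11 in those called in none. The separating promoters of both directions were nearer in CpG number to promoters called in none than to those called in all 4.

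Irf1, a transcription factor induced by interferon, had an interval in RH MET 1 and in RH MET 2 that lay across its promoter and the start of its span. It covered 40.5% of the span in RH MET 1 and 47.7% in RH MET 2, with summits of 17 and 13, and all 300 bases of the promoter shown above. Neither WT MET library had any interval in the span, and none of the 4 vehicle libraries did. With a minimum summit height of 15 the call of Irf1 was lost. Of the 8 genes on the interferon and inflammation list with a call in at least 1 library, Irf1 alone separated the groups, and it carried the only surplus of cover in RH MET against 3 in WT MET. Cxcl9, a chemokine induced by interferon, was covered less in RH MET, over 13.0% and 33.8% of its span against 54.5% and 63.4% in WT MET, as was Tnf, a cytokine of inflammation, with 83.6% and 98.7% against 100% and 100%.

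Odf3b, a gene named for a sperm tail fibre protein, was covered whole in RH MET 1 and 2, with summits of 55 and 51, and had no interval in WT MET 1 or 2. This was also the order under vehicle, where it was covered whole in RH VEH 1 and 2 (summits 30 and 43) and had no interval in WT VEH 1 or 2. All 4 R878H libraries thus had an interval over the gene and none of the 4 wild-type libraries did. The intervals also took in the start of the neighbouring Tymp, a minus-strand gene that encodes thymidine phosphorylase, over 15.5% and 19.2% of its length in RH MET 1 and 2. Weak intervals of the WT MET libraries began beyond the gene, with summits of 9 and 16. Beside Odf3b and Tymp, only Dnase2a, which encodes the lysosomal DNase that degrades DNA of engulfed cells, was called in all 4 R878H and no wild-type library, over 37.4% and 84.9% of its span in RH MET 1 and 2 and 3.49% in each RH VEH library.

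Among the other RH MET-only genes covered most, Rln3, a relaxin-family neuropeptide gene, was covered whole in both RH MET libraries and had no interval in any other library (summits 14 and 14). Il1f10, an interleukin-1 family gene, was also covered whole in both (summits 9 and 10), and so it was in WT VEH 1. Pfn3, a testis profilin gene, was covered over 100% and 79.3% (summits 22 and 46), Mamstr, a muscle coactivator gene, over 64.3% and 86.5%, and Tppp3, a tubulin-binding protein gene, over 46.3% and 92.1%. Pfn3 was also covered over 100% in RH VEH 2 and WT VEH 1, and Mamstr over 73.3% in WT VEH 2. Tppp3 had no interval in any vehicle library. The olfactory receptor genes Olfr285 and Olfr159 were also among the 10. Under vehicle Olfr285 was covered whole in both RH VEH libraries and in WT VEH 2, and Olfr159 was called in both WT VEH libraries. In all, 5 of the 76 were covered whole in both libraries and 20 were covered over less than 5% of the span in both.

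The most covered RH MET-only regions reached about 10 kb. That over Pygm, the muscle glycogen phosphorylase gene (chr19:6381801-6394000), was covered over 11.8 and 8.4 kb in RH MET 1 and 2, with summits of 16 and 13, and over 11.2 kb in RH VEH 2. Regions over Tnfaip2, a gene induced by tumour necrosis factor (8.6 and 6.8 kb, summits 23 and 14), and Ptgfrn, a prostaglandin F receptor regulator gene (10.2 and 4.6 kb, 15 and 12), were called in no vehicle library. Others lay over Ephb4, an ephrin receptor gene of veins, with Zan (8.8 and 7.4 kb), and nearest to Nr5a2, a nuclear receptor gene of liver and pancreas (10.4 and 8.6 kb), Lonrf1, Thap12, Pdcd6ip, Arl3 and the neural and endocrine factor gene Neurod1. By summit height the leading regions were the short one nearest to Tmprss2, then Cercam with Urm1, Rtn4rl1 and Ankdd1a (23 and 26). Further ones lay over Kctd17 with Tmprss6, a protease gene of iron control (21 and 27), and Casz1, a zinc finger factor gene (21 and 25).

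WT MET-only regions were wider. The most covered lay nearest to Lrpap1, a receptor chaperone gene (chr5:35136801-35161600), over 13.4 and 23.8 kb in WT MET 1 and 2 (summits 12 and 16) and 22.0 and 5.8 kb in the WT VEH libraries. The next lay nearest to Dio3, an imprinted gene for the enzyme that inactivates thyroid hormone, over 22.0 and 12.2 kb (14 and 14) and in no vehicle library. Further ones lay over Col4a6, a basement membrane collagen gene on X (12.8 and 19.6 kb), Tenm4, a teneurin gene of neural wiring (13.4 and 17.0 kb), Mamld1 on X, Trank1 and Myo7b. By summit height the leaders were Pdxp with Sh3bp1 (26 and 24), Fam114a1 with Tlr6, a Toll-like receptor gene (26 and 22), Cdh23, a cadherin gene of inner ear hair cells (22 and 21), 1700122O11Rik and Gda. None reached 25 in both libraries.

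The WT MET-only genes covered most were short ones. Bdkrb1, a bradykinin receptor gene (summits 13 and 11), Gm2696, Gm9507, Olfr311 and Olfr324 were covered whole in both WT MET libraries and had no interval in any other library. 1700020A23Rik was covered whole with summits of 60 and 54, and also over 90.9% in RH VEH 2. Cmtm5, Gm39566, Gm19668 and Hils1, a spermatid histone gene, were covered whole too and were called in at least 1 vehicle library. The intervals at Cmtm5 and Gm39566 had summits of 17 and 11 in WT MET 1 and of 106 and 137 in WT MET 2, where 1 interval ran over the gene and beyond it. Of the 182 genes, 14 were covered whole in both libraries and 49 over less than 5% in both.

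Of 461 genes on 17 lists of blood lineages, inflammation, Polycomb, metabolism and other roles, 457 were matched and 247 were called in at least 1 of the 4 libraries. Only 4 of these were RH MET-only and 3 WT MET-only. Without RH MET 1, RH MET 2, WT MET 1 or WT MET 2 they were 7 and 7, 9 and 5, 16 and 8, and 6 and 6. Set beside 0.921% and 2.21% over all called genes, nothing particular to the lists can be read from these counts. Beside Irf1, the RH MET-only ones were Mllt3 and Msi2, which sustain self-renewal of blood stem cells, and Slc22a2, a kidney transporter that takes up metformin. Mllt3 was covered over 0.989% and 0.987% of its span and Msi2 over 0.844% and 1.21%, in no other library of the 8, and Slc22a2 over 5.90% and 8.15%, with 14.5% in WT VEH 1. The WT MET-only ones were Ndn, Gnmt and Dntt. Ndn, an imprinted gene linked to stem cell quiescence, was covered over 100% and 80.1% of its span, and over 55.9% in WT VEH 2. Gnmt, which consumes S-adenosylmethionine in liver, was covered over 39.8% and 28.5%, and was also called in RH VEH 1 and WT VEH 1. Dntt, which adds nucleotides at V(D)J junctions of lymphocytes, was covered over 18.3% and 17.6% and over the whole promoter shown above. Of these 7 calls, those of Ndn and Slc22a2 were lost with equal covered length, all but that of Gnmt with a minimum summit height of 15, and all but that of Ndn with cover of at least 50%.

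**Figure D4:**
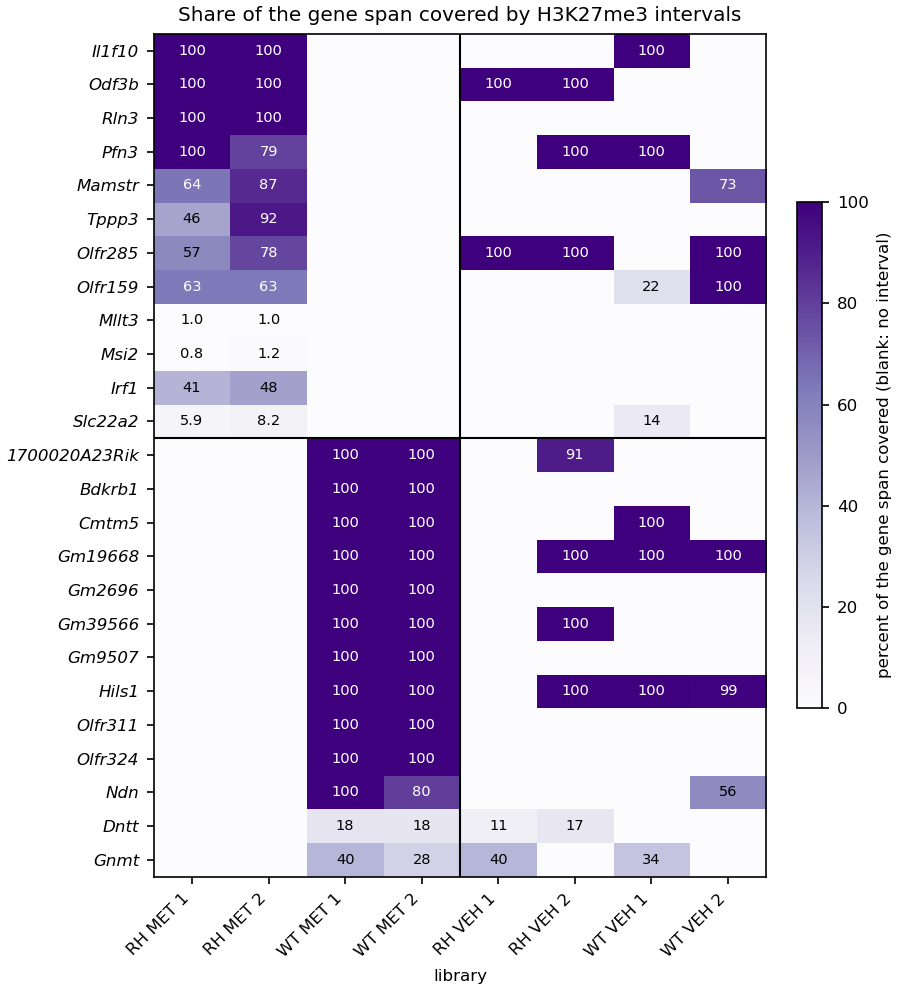
Percent of each gene span covered by intervals in the 8 libraries, for separating genes of each direction with the greatest cover and for the separating list genes below them, RH MET-only genes above the line and WT MET-only genes under it. By selection the first 2 columns are filled above the line and the next 2 below it; the vehicle columns took no part in the choice, and of all genes shown Odf3b and Dntt are filled in both RH VEH and empty in both WT VEH columns.

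Cover could also differ at genes called on both sides. Over all called genes, a larger share of the span was covered in both RH MET libraries than in both WT MET libraries at 407 (4.93%), and the reverse held at 2036 (24.7%). In the same order, myeloid genes counted 0 and 4 of 13, among them Csf3r, a cytokine receptor gene of neutrophils (6.501% and 15.6% in RH MET against 21.2% and 23.0% in WT MET). Erythroid and megakaryocyte genes counted 0 and 5 of 12, among them Epor, the erythropoietin receptor gene (72.1% and 72.1% against 93.5% and 100%), and Alas2, a heme synthesis gene on X (4.404% and 17.2% against 30.2% and 66.4%). Methionine and one-carbon genes counted 0 and 4 of 13, among them Shmt2, a mitochondrial serine enzyme gene (51.1% and 47.4% against 81.2% and 77.5%). Stem and progenitor genes counted 5 and 2 of 25. Their spans together were covered over 7.43% and 8.85% in RH MET against 6.22% and 8.30% in WT MET, values that overlap. Beside Mllt3 and Msi2, the 5 were Gata2 (100% and 100% against 95.2% and 96.7%), Meis1 (11.5% and 11.2% against 9.52% and 9.52%) and Bmi1 (68.8% and 69.0% against 60.5% and 62.5%). Gata2 and Meis1 encode transcription factors of stem cells, and Bmi1 a Polycomb subunit that they need. Kit and Ndn were the 2 with more cover in WT MET. Among other lists the counts were 2 and 5 of 17 lymphoid genes and 0 and 4 of 50 developmental regulators. They were 1 and 0 of 39 Hox genes and 1 and 1 of 12 Polycomb genes. With counts this small, no pattern across the lists can be read from them.

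Marker lists of cell types other than progenitors gave no separating gene, apart from Dntt among lymphoid genes. Intervals lay in 4 and 3 of 14 mast cell, basophil and eosinophil genes in RH MET 1 and 2 and in 3 and 4 in WT MET 1 and 2. Their spans together were covered over 10.7% and 10.5% in RH MET and 10.1% and 14.8% in WT MET. Stromal and endothelial genes gave 11 and 12 of 20 in RH MET and 11 and 11 in WT MET, with 10.5% and 9.98% of the spans covered against 11.2% and 13.2%. Lymphoid genes gave 15 and 15 of 30 in RH MET and 17 and 16 in WT MET, with 23.4% and 26.97% of the spans covered against 28.0% and 35.7%. Over all protein-coding genes the covered share of the spans was 5.78% and 6.21% in RH MET against 6.80% and 8.47% in WT MET. The lymphoid difference thus moved with the whole, and its part in the results on single genes was not tested.

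Among the 8365 regions called in all 4 libraries, both WT MET libraries often covered more. Both RH MET libraries covered more base pairs than both WT MET libraries at 325 regions (3.89%), and the reverse held at 3204 (38.3%). The median log2 ratio of RH MET over WT MET cover was -0.26, with quartiles of -0.53 and -0.04. By replicate number instead of genotype, the number 1 libraries covered more at 438 regions and the number 2 libraries at 2003, a lopsided count in a split with no biological contrast. The regions wider in RH MET and in WT MET were 1338 and 4443 without RH MET 1, 856 and 5494 without RH MET 2, 761 and 5883 without WT MET 1, and 1681 and 4010 without WT MET 2. Among the widest surpluses in RH MET was a region nearest to Mfge8, a gene for a bridging protein of cell clearance, with 21.8 and 30.6 kb against 9.6 and 19.8 kb in WT MET. Olig3, a neural bHLH factor gene, had 29.0 and 31.4 kb in RH MET against 22.4 and 21.2 kb in WT MET, and Pdgfb, a platelet-derived growth factor gene, 18.6 and 22.2 kb against 12.4 and 15.4 kb. The widest deficits in RH MET were at the 530 kb region over Efnb1 and Pja1 on X (392.8 and 386.8 kb against 442.4 and 492.8 kb) and over Sdk2, a synaptic adhesion gene (73.4 and 65.8 kb against 110.2 and 166 kb). Grik3, a glutamate receptor gene, had 57.2 and 50.8 kb in RH MET against 86.4 and 109 kb in WT MET, and Foxb1, a forkhead factor gene, 56.8 and 49.4 kb against 94.2 and 93.6 kb.

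The vehicle libraries show how far the separating regions follow genotype without the drug, and the same rule gives RH VEH-only and WT VEH-only regions there. Of the 242 RH MET-only regions, 5 (2.07%) also separated RH VEH from WT VEH in the same direction, 5 (2.07%) did so in the opposite direction, and 128 (52.9%) were called in no vehicle library. Over all 17126 regions, 0.450% had the RH VEH-only pattern, 2.50% the WT VEH-only pattern and 26.2% no vehicle call. Of the 666 WT MET-only regions, 39 (5.86%) were WT VEH-only, 6 (0.901%) were RH VEH-only and 216 (32.4%) were called in no vehicle library. The vehicle comparison had 85 RH VEH-only regions, of which the shared 5 are 5.88%, and 462 WT VEH-only regions, of which the shared 39 are 8.44%. Most regions that separated the genotypes in one treatment did not do so in the other. On genes, 3 of 76 and 16 of 182 followed genotype under vehicle too, and 3 and 2 went the other way. Over all 8248 called genes, 0.388% were RH VEH-only and 2.13% WT VEH-only.

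**Figure D5:**
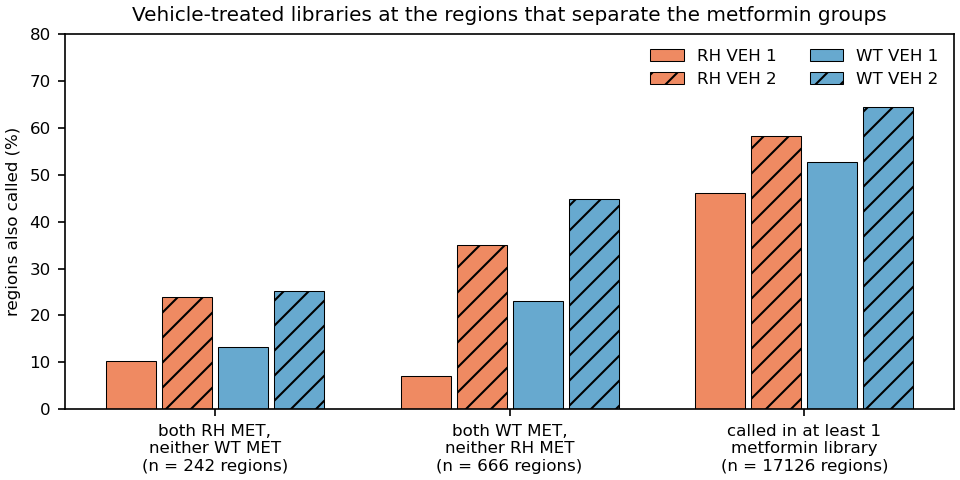
Percent of regions called in each vehicle library, for RH MET-only regions, WT MET-only regions and all regions called in at least 1 metformin library. RH VEH 1 calls 10.3%, 7.06% and 46.2% of them, and the number 2 libraries call more than the number 1 libraries of the same genotype in each class.

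The 44 regions that follow genotype in all 8 libraries were mostly weak, and are named here after their values were seen. The 5 called in all R878H and no wild-type library included those nearest to Tm2d1 (chr4:98318001-98326800, summits 15 and 16 in RH MET and 10 and 11 in RH VEH), Ncald, a neuronal calcium sensor gene (11 and 13 in RH MET, 8 and 13 in RH VEH), and Cript (19 and 21 in RH MET, 8 and 11 in RH VEH). The 39 called in all wild-type and no R878H library included those over Ikzf4, an Ikaros-family gene of regulatory T cells, with Suox, the sulfite oxidase gene (chr10:128663401-128674600, summits 23 and 20 in WT MET and 14 and 20 in WT VEH). Others lay over Foxp1, a forkhead gene of B-cell development (21 and 16 in WT MET), Fut4, a fucosyltransferase gene of myeloid cells (21 and 17), and Tcf7l2, a Wnt pathway factor gene (14 and 13, covered over 12.8 and 13.8 kb). Further ones lay over Megf11, Cilp, Col6a6, Pik3r5 and Eda, and nearest to Pax5, the B-lineage factor gene, at a distance of 27.7 kb. With equal covered length all 5 R878H regions and 5 of the 39 wild-type regions kept the metformin pattern, and with a minimum summit height of 15 the numbers were 4 and 5.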

How the data were processed

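H3K27me3 was mapped by chromatin immunoprecipitation sequencing of formaldehyde-fixed cells on an Illumina NovaSeq instrument, per the labels' protocols. Per the submitters' processing notes, bcl2fastq 2.20, BWA 0.7.12 and mm10 were used, with no role stated for any of them. How intervals were called, with how many reads and with what role for the input library is not given in the sources used here, so no counting error could be computed. Per the file headers, the authors deposited an interval list and a list of summits for each library, not for pooled replicates, and 1 list of merged regions. The summit height is a score, a whole number that the authors deposited without a unit, and was used to describe, rank or filter intervals within a library. Deposited edges fall on multiples of 200 bp, and positions are 1-based here.

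Intervals of the 8 libraries merged into 18556 regions, the same 18556 as in the deposited list. Calls need 1 bp of overlap with a region or with 1 of 21631 protein-coding spans of autosomes and X from RefSeq (GRCm38.p6). The counts carry no test. Library totals were set against each other by a two-sided exact permutation test with Python 3.11.15, numpy 2.4.6 and scipy 1.17.1, and the counting steps were checked on simulated intervals. Alternatives were an equal number of intervals (15257), an equal covered length (122 Mb), a minimum summit height of 15, autosomes alone, cover of at least 50%, joining of intervals within 1000 bp, windows of 2500 bp on either side of the gene start, a replicate block and leaving out each library. Regions were named where they were among the 10 most covered or the 10 highest per direction, with the gene overlapped or the nearest one, and genes where they were among the 10 most covered or on a list. A few of these are not named here. The comparison, the gene lists and the rules were chosen with earlier results of these data known. The list genes Tpsab1, Mx1, Mx2 and H19 were not matched.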

Additional observations from a re-analysis of the deposited data

Results flagged for a closer look

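At some places the genotypes differed one way under metformin and the other way under vehicle, with every library of each genotype on its own side in both treatments. These differences between treatments were not tested. Olfr159, an olfactory receptor gene, had 63.4% of its span covered in each RH MET library against 0% in both WT MET libraries, and over 0% in both RH VEH libraries against 21.8% and 100% in the WT VEH libraries. Its genotype difference was 63.4 percentage points under metformin and -60.9 under vehicle, a change of 124 points. Dntt was covered over 0% in both RH MET libraries against 18.3% and 17.6% in WT MET, and over 10.6% and 16.5% in RH VEH against 0% in both WT VEH libraries, a change of -31.5 points. The region nearest to Lonrf1 was covered over 10 and 9 kb in RH MET against 0 kb in WT MET, and over 0 kb in RH VEH against 10 and 9.2 kb in WT VEH, a change of 19.1 kb. The region over Zfp660 and Zkscan7, a pair of zinc finger genes, was covered over 0 kb in RH MET against 4.2 and 6.4 kb in WT MET, and over 3.2 and 7.0 kb in RH VEH against 0 kb in WT VEH, a change of -10.4 kb. In each of these the calls turned round in all 8 libraries, which holds by the way they were chosen. In all, 5 of the 242 RH MET-only (2.07%) and 6 of the 666 WT MET-only regions (0.901%) were of this kind. Over all 17126 regions, 2.50% were WT VEH-only and 0.450% RH VEH-only. Nothing particular to the separating regions can be read from counts this small.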

How the results depend on the processing

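Counts given as pairs are RH MET-only and WT MET-only. With equal covered length the regions were 852 and 49, the genes 193 and 87 and the RH MET-only list genes 7, and 2049 shared regions were wider in both WT MET libraries. With a minimum summit height of 15, 68 regions, 31 genes and 0 list genes were RH MET-only. With cover of at least 50%, 1397 regions were WT MET-only, 27 genes RH MET-only, and 0 and 5 list genes separated the groups, and 201 and 1406 shared regions were wider in RH MET and in WT MET. Leaving out each library in turn gave 469 to 1293 and 1142 to 2363 regions, 173 to 263 and 343 to 529 genes, 6 to 16 and 5 to 8 list genes, and 761 to 1681 and 4010 to 5883 shared regions wider in RH MET and in WT MET. The difference in covered length, RH MET minus WT MET, ran from -59.1 to -21.0 Mb. The cause of these changes was not tested. With an equal number of intervals, autosomes alone, joined intervals or windows around the gene start, the counts that could be given stayed within 1.5 times those reported. Of the 14 RH MET-only and 13 WT MET-only genes that the naming rule gave, 12 and 4 kept the pattern with equal covered length, 5 and 3 with the minimum summit height and 9 and 11 with cover of at least 50%.

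No paired analysis was possible because the counts come from no test and nothing in the labels says that libraries with the same number belong together. For covered length alone, the replicate block gave a mean difference within pairs of -40.0 Mb (-25.6 and -54.5 Mb), and 2 pairs cannot give an exact p below 0.5. Over 17126 regions, deviations of same-numbered libraries from their group means correlated at 0.125 for covered base pairs and at 0.0173 for calls. Summit heights have no stated unit, and with 2 libraries a group no count here can be told from the spread between libraries.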

Other observations

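Olfactory receptor genes, silent outside the nose, took part on both sides. Of 1110 in the gene table, 69 were called in at least 1 metformin library, and 3 of these were RH MET-only (Olfr159, Olfr285 and Olfr330) and 3 WT MET-only (Olfr311, Olfr324 and Olfr325), 4.35% each, against 0.921% and 2.21% of all called genes; with 3 genes a side, nothing particular to the family can be read from this. Beside Olfr159, the RH MET-only genes that were WT VEH-only under vehicle were Hilpda, a lipid droplet protein gene, over 3.81% of its span in each RH MET library, and Saa4, a serum amyloid gene, over 17.5% and 60.9%. They were named after their values were seen.

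Imprinted genes, which are expressed from 1 parental copy, had more cover in both WT MET libraries at 4 of the 19 called and in both RH MET libraries at 0. The 4 were Ndn, Igf2r (40.9% and 41.1% of the span in RH MET against 41.6% and 47.8% in WT MET), Peg10 (12.8% and 12.8% against 17.4% and 20.4%) and Rtl1 (16.7% and 15.2% against 38.0% and 43.1%). Genes of metformin transport and AMP-activated kinase signalling counted 1 and 4 of 11. Beside Slc22a2, with more cover in RH MET, these were Slc29a4, a transporter gene (46.4% and 48.4% against 72.4% and 75.04%), the kinase subunit genes Prkag2 and Prkag3, and G6pc, a glucose output gene of liver (63.8% and 59.9% against 100% and 100%). Over all called genes the shares were 4.93% with more cover in RH MET and 24.7% with more in WT MET. Beside these shares, nothing particular to either list can be read from counts this small.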
